A study of Mus musculus with 2 samples.

Results

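The 9 genes that mark muscle stem cells and their descendants were examined in the nuclei of injured mouse bone, as 9 of the 32285 genes in the deposited tables. They were taken by symbol and are Pax7, Myf5, Myod1, Myog, Mymk, Megf10, Chodl, Ncam1 and Chrna1, and each symbol matched 1 gene. The study made 2 single-nucleus RNAseq libraries from wild-type mice, labelled C57BL6, and left myogenic nuclei out of its own analysis of them. The first held the periosteum and hematoma at day 1 after tibial fracture. The second held the callus at day 5 after musculoskeletal traumatic injury (MTI), a fracture combined with damage to the neighbouring muscle. Each library pooled injured tibias from 3 or 4 mice, and the tissue around the bone was removed before the periosteum and callus were scraped off. There is 1 library per condition, day and injury differ together between them, and their values are therefore given side by side without a comparison. The counts are unique molecular identifiers (UMIs), which number the captured RNA molecules. After filtering, 2405 nuclei with a median of 409 UMIs remained at day 1 and 1127 nuclei with a median of 2364 UMIs after MTI. The libraries shared 33 cell barcodes before and 15 after filtering.

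Skeletal muscle is repaired by satellite cells, stem cells that lie between a muscle fibre and its basement membrane. The paired-box factor Pax7 marks them. After injury they divide, switch on the myogenic regulatory factors Myf5 and Myod1, then Myog as they differentiate, and finally fuse into fibres with the help of the membrane protein Mymk. Megf10 is a receptor of activated satellite cells that promotes their proliferation, Chodl is a membrane lectin, Ncam1 is an adhesion molecule of satellite cells, regenerating and denervated fibres, nerve and other cells, and Chrna1 is the alpha subunit of the muscle acetylcholine receptor.

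Myog, Myod1 and the other regulatory factors bind E-boxes, which have the letters CANNTG on either strand. The 250 bases before the RefSeq start are shown for Myog and Chrna1, which were often found in the same nuclei below, and for Chodl, which was found in none of those. They come from RefSeq on GRCm38.p6, where 5 of the 9 genes matched a promoter entry. CANNTG is in capitals.

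Myog, chr1:134289754-134290003, plus strand: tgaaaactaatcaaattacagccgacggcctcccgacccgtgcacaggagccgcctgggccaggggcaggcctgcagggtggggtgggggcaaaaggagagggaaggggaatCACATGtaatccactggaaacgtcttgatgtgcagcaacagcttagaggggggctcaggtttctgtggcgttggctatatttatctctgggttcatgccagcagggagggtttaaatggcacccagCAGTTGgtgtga

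Chrna1, chr2:73580339-73580588, minus strand: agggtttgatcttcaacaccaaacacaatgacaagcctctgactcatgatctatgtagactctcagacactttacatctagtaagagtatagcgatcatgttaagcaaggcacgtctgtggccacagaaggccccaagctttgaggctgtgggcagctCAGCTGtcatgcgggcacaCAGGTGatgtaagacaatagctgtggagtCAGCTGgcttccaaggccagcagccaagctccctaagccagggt

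Chodl, chr16:78930698-78930947, plus strand: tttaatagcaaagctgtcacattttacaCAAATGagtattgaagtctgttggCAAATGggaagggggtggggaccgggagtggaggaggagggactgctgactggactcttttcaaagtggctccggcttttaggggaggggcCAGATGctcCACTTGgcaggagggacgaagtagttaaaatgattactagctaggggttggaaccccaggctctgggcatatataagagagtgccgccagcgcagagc

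The Myog window held 2 matches, the Chrna1 window 3 and the Chodl window 4, and 2 of the Chrna1 matches read CAGCTG. The matched window of Myf5 (chr10:107486135-107486384, minus strand) held 0. Such letters are common, since CANNTG occurred in 66.2% and CAGCTG in 13.0% of all 32851 promoter windows of this length. The last 15 bases of the Myog window lie inside the gene as GENCODE annotates it. The window of Pax7 lies inside its GENCODE transcript and is not shown. Myod1, Mymk, Megf10 and Ncam1 had no entry in this table.

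After MTI the 9 genes together had 3335 UMIs, a level of 769 CPM (counts per 1e+06 UMIs of all genes, 95% Poisson interval 743 to 795). Ncam1 made up 2640 of these and Megf10 276. Pax7 had 167 UMIs, Chrna1 93, Myog 52, Chodl 39, Myod1 37, Mymk 18 and Myf5 13. In CPM these were 609 for Ncam1, 63.6 for Megf10, 38.5 for Pax7, 21.4 for Chrna1, 12.0 for Myog, 8.99 for Chodl, 8.53 for Myod1, 4.15 for Mymk and 3.00 for Myf5. Nuclear reads cover introns, and the genes range in span from 2.56 kb (Myog, chr1:134289989-134292548) to 297 kb (Ncam1, chr9:49502136-49798925). Per kb of gene span, Myog was the highest at 4.68 CPM per kb (3.50 to 6.14) and Myod1 followed at 3.25 (2.29 to 4.48), with overlapping intervals. Ncam1 came to 2.05 CPM per kb (1.97 to 2.13), Chrna1 to 1.25 (1.01 to 1.53) and Myf5 to 0.929 (0.495 to 1.59), and the last 2 overlapped. Chodl, Pax7, Mymk and Megf10 lay between 0.387 and 0.433 CPM per kb and could not be put in order. Per kb of exon the order was another, with Ncam1 at 70.3, Megf10 at 8.24, Myog at 8.02 and Pax7 at 6.57 CPM per kb. All intervals here cover counting error only. UMIs of 1 nucleus are not independent, so the spread between nuclei is wider than these intervals.

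Most of these transcripts lay in 2 small clusters. The nuclei were clustered without the 9 genes among the variable genes. Cluster 12 (27 nuclei, median 6697 UMIs) carried all 9 satellite cell markers used for naming, at a pooled level 20.7 times that of the other nuclei, and was led by Dcx, Prox1, Chrna7 and Cdh15. It is called satellite cell-like. Cluster 4 (98 nuclei, median 5715.5 UMIs) carried all 13 fibre markers at 83.6 times the level of the rest, led by genes such as Myot, Smpx, Myh1 and Trdn, and is called muscle fibre-like. Together these 125 nuclei held 74.6% of the UMIs of the 9 genes (95% Clopper-Pearson interval 73.1 to 76.1%) where the satellite cell-like cluster held 4.53% and the fibre-like cluster 16.1% of all UMIs.

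**Figure D1:**
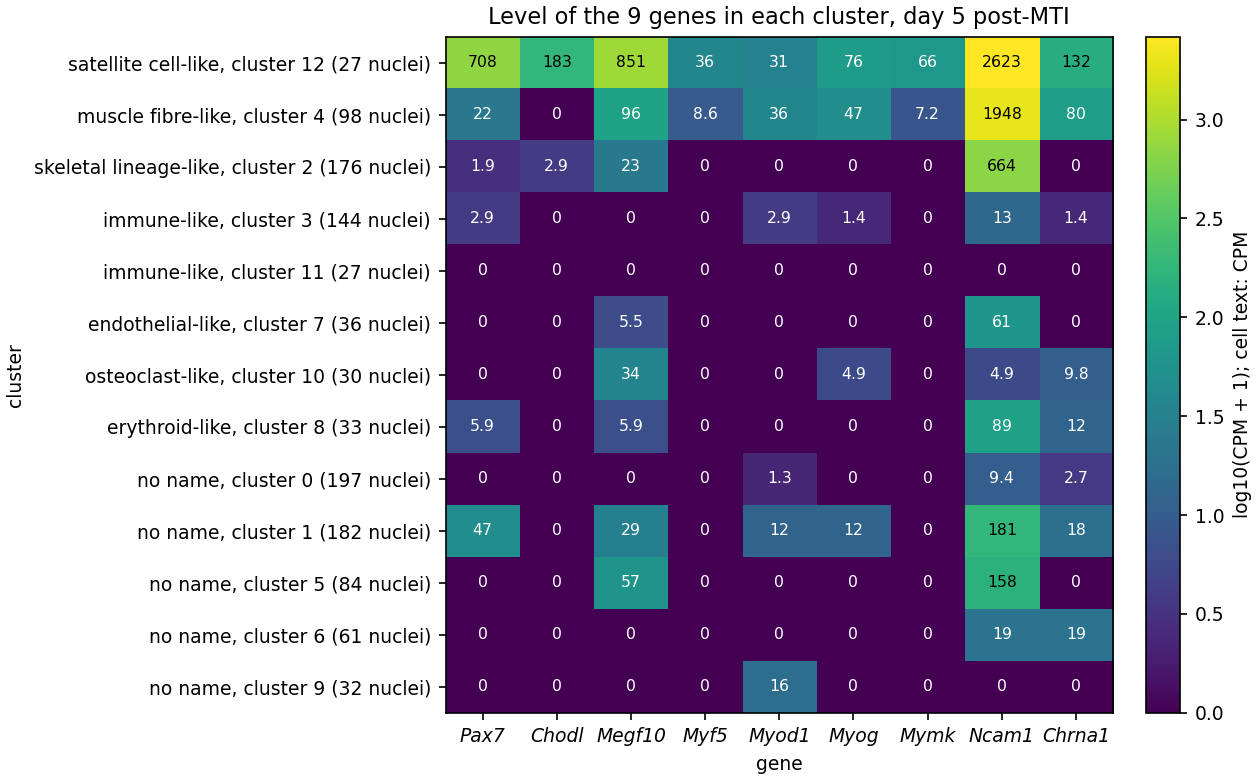
Level of each gene (columns, CPM) in each of the 13 clusters of the day 5 post-MTI library (rows). Colour is log10(CPM + 1) and the number in each cell is the CPM. Chodl reached 183 CPM in the satellite cell-like cluster and 0 in the muscle fibre-like cluster, and Ncam1 was also at 664 CPM in the skeletal lineage-like cluster.

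Pax7 was found in 42 of 1127 nuclei (3.73%, 2.70 to 5.00%). Among the 27 satellite cell-like nuclei 17 had a Pax7 UMI (63.0%), with 1 to 27 UMIs and a median of 6 in those 17. Of the 98 fibre-like nuclei 12 had Pax7 (12.2%), at 1 or 2 UMIs each. The immune-, endothelial-, erythroid- and osteoclast-like nuclei, which are not known to use the gene, gave 3 of 270 (1.11%, 0.230 to 3.21%) at a median depth of 4216.5 UMIs. That share is read as background. The level was 708 CPM in satellite cell-like nuclei, 21.5 CPM in fibre-like nuclei and 2.27 CPM in those background nuclei. After each nucleus was thinned to 500 UMIs, Pax7 remained in 6 of 27 satellite cell-like nuclei, in 1 of 98 fibre-like nuclei, in 1 of 270 background nuclei and in 4 of the 182 nuclei (2.20%) of cluster 1, which has no name. At full depth that cluster held 8 nuclei with 1 Pax7 UMI each and was shallow (median 691 UMIs). There Pax7 stood at 46.8 CPM (20.2 to 92.2), and 2 of these 8 nuclei had another of the 9 genes.

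Chodl followed Pax7 most closely. It was found in 9 nuclei, of which 8 also had Pax7 and were satellite cell-like. Its UMIs were concentrated, with 19 of 39 in 1 nucleus and 9 in another, and those nuclei also held 20 and 17 Pax7 UMIs. The ninth nucleus had 3 UMIs and was skeletal lineage-like. No fibre-like nucleus had Chodl. The satellite cell-like level is 42.6-fold higher when the fibre-like cluster is given 3 UMIs, and the interval of the ratio starts at 32.9. Megf10 was less restricted. It had 167 UMIs in 20 of 27 satellite cell-like nuclei (851 CPM), 67 UMIs in 16 of 98 fibre-like nuclei (96.2 CPM) and 24 UMIs in 12 of 176 skeletal lineage-like nuclei (23.4 CPM), beside 6.80 CPM in the background nuclei. Of the 9 background UMIs of Megf10, 7 were in 1 nucleus. The clusters without a name together gave 8.22 CPM (3.76 to 15.6). Of them, cluster 1 stood at 29.2 CPM (9.50 to 68.2) and cluster 5 at 57.4 CPM (15.7 to 147), from 5 and 4 UMIs. The skeletal lineage-like level was therefore not above that of every other cluster outside muscle. The satellite cell-like level of Megf10 was 8.85 times the fibre-like level (6.62 to 11.9), and for Pax7 this ratio was 32.9 (19.3 to 60.3).

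The regulatory factors were thin. Myf5 had 7 UMIs in 3 satellite cell-like nuclei, 5 of them in 1 nucleus, and 6 UMIs in 5 fibre-like nuclei. It had 0 UMIs elsewhere. Myod1 had 6 UMIs in 5 satellite cell-like nuclei and 25 UMIs in 16 fibre-like nuclei, 30.6 against 35.9 CPM, a ratio of 0.852 whose interval (0.286 to 2.13) spans equality. Myog gave 15 UMIs in 4 and 33 UMIs in 14 nuclei of these clusters, 76.4 and 47.4 CPM (ratio 1.61, 0.814 to 3.05). Mymk, which acts at the moment of fusion, stood at 66.2 CPM in satellite cell-like and 7.18 CPM in fibre-like nuclei, a ratio of 9.23 (3.09 to 33.1), and was at 0 in all other clusters. Its 13 satellite cell-like UMIs were in 5 nuclei with 1 to 4 each. Of these 4 factors only Myod1 and Myog had UMIs in the background nuclei, at 1.51 CPM each.

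Chrna1 and Ncam1 were spread over both clusters. Chrna1 stood at 132 CPM in satellite cell-like nuclei (11 of 27 nuclei) and at 80.4 CPM in fibre-like nuclei (25 of 98), with 0 UMIs in the skeletal lineage-like cluster and 3.78 CPM in the background nuclei. Ncam1 reached 2623 CPM in satellite cell-like nuclei (25 of 27) and 1948 CPM in fibre-like nuclei (60 of 98). Of the 9 genes it had the highest level in any named cluster outside muscle. In clusters without a name Pax7 reached 46.8 CPM (cluster 1) and Megf10 57.4 CPM (cluster 5). Their fibre-like levels were 21.5 and 96.2 CPM. Ncam1 stood at 181 and 158 CPM in clusters 1 and 5. Skeletal lineage-like nuclei held 682 of the Ncam1 UMIs, in 97 of 176 nuclei (55.1%), at 664 CPM (615 to 716), against 27.2 CPM in the background nuclei. Within that cluster Ncam1 did not differ with the markers beyond counting error. In 58 nuclei with more chondro-osteogenic UMIs (Sp7, Alpl, Ibsp, Bglap, Acan, Col2a1, Sox9 and Fgfr3) it stood at 685 CPM, and in 21 nuclei with more progenitor UMIs (Ly6a, Cd34, Dpp4 and Pi16) at 685 CPM too, a ratio of 1.00 (0.788 to 1.28). Gm11149 overlaps Ncam1 on the other strand.

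The satellite cell-like cluster could be read nucleus by nucleus. Its 17 nuclei with Pax7 had 0 Myog and 0 Mymk UMIs, and its 5 nuclei with Mymk had 0 Pax7 and 0 Chodl UMIs. In those 5 nuclei Mymk had 2, 4, 1, 3 and 3 UMIs, Myog 9, 3, 2, 1 and 0, and Chrna1 4, 5, 1, 1 and 4. Notch3, Heyl and Dcx, a receptor and a target of the Notch pathway and a microtubule protein of immature cells, were at 0 in all 5, which allows up to 62.2 CPM each. In the 17 Pax7 nuclei the same genes stood at 1351, 323 and 299 CPM, and were found in 16, 11 and 6 of the nuclei. Dcx was thus also at 0 in most of the 17. Of the 9 naming markers only Notch3, Heyl, Dcx and Fgfr4 are given for these nuclei. Heyl and Dcx are also among the genes most like Pax7 below. The share of all genes at 0 in the 5 nuclei was not computed, so the 0 counts are not read as a result. Fgfr4, another of the naming markers, was not absent, with 11 UMIs in 4 of the 5 nuclei. It stood at 228 CPM (114 to 408) there and at 607 CPM (477 to 760) in the 17. Ttn, the giant spring protein of the fibre, had 55 to 299 UMIs in each of the 5 and 0 to 68 in the 17. Megf10 was in all 5 (1 to 23 UMIs) and in 13 of the 17 (up to 19 UMIs). The last 5 nuclei of the cluster had neither Pax7 nor Myog or Mymk, and 3 of the 6 Myod1 UMIs of the cluster were in 2 of them.

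**Figure D2:**
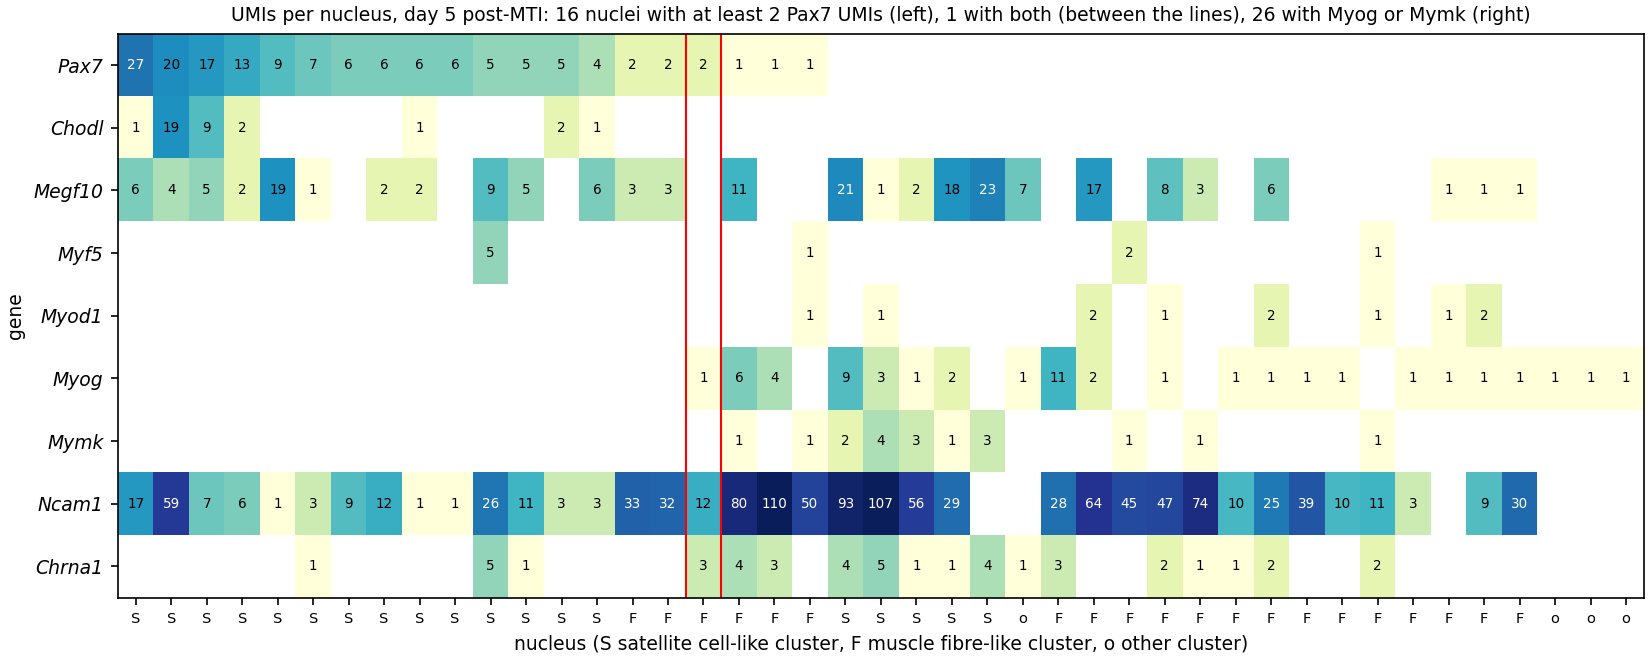
UMIs of each gene (rows) in 43 single nuclei (columns) of the day 5 post-MTI library, namely 16 with at least 2 Pax7 UMIs, 1 with at least 2 Pax7 UMIs and Myog, and 26 with a Myog or Mymk UMI, and blank cells are 0. Chodl is found only on the left, and Megf10 and Ncam1 on both sides. Myog and Mymk lie right of the first line because the groups were chosen by them.

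The co-detection of the other 8 genes was counted in the 42 Pax7-positive nuclei. Of these nuclei 34 (81.0%, 65.9 to 91.4%) had a UMI of at least 1 of the other 8 genes, against 232 of 1085 Pax7-negative nuclei (21.4%, 19.0 to 23.9%). The Pax7-positive nuclei were deeper, with a median of 6141 against 2284 UMIs. With all nuclei thinned to 500 UMIs, and the groups kept as chosen at full depth, the shares were 18 of 42 (42.9%) and 106 of 1085 (9.77%). With Pax7 itself also read after thinning, 12 nuclei still had it, and 1 of these (8.33%, 0.211 to 38.5%) had another of the genes, against 123 of the other 1115 nuclei (11.03%, 9.25 to 13.0%). No higher share was therefore seen in Pax7 nuclei at that depth. At full depth Ncam1 was in all 34 Pax7-positive nuclei that had another of the genes, and in 204 of the 232 Pax7-negative ones. Ncam1 was also found in skeletal lineage-like nuclei, so the 81.0% does not show how far Pax7 marked the muscle lineage. Without Ncam1 the unthinned shares were 61.9% and 7.47%. All 17 nuclei with at least 2 Pax7 UMIs had another of the genes, as did 17 of the 25 with 1 Pax7 UMI. Of those 25, 3 were satellite cell-like, 9 fibre-like, 5 in other named clusters and 8 in cluster 1.

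By gene, Ncam1 was found in 34 of the Pax7-positive nuclei, Megf10 in 17, Chrna1 in 12, Chodl in 8, Myod1 in 6, Myf5 in 3, Myog in 3 and Mymk in 2. On the CPM scale, 7 of the 8 genes were at least 2 times as high in Pax7-positive as in Pax7-negative nuclei. Of all 15212 genes with at least 10 UMIs, 12.6% were. Chodl had the highest ratio at 148 (46.6 to 749), and 72.9 without the nucleus that held most of it. Myf5 followed at 14.3 (4.13 to 51.7), which fell to 4.29 (0.424 to 24.0) without 1 nucleus. Chodl and Myf5 had 3 and 6 UMIs in the Pax7-negative nuclei. They passed the filter of 10 UMIs only through the Pax7-positive nuclei, so their place among the 7 is not read as a result. Megf10 was 7.66 times as high (5.96 to 9.83), Chrna1 5.30 times (3.27 to 8.37), Ncam1 4.02 times (3.67 to 4.39) and Myod1 3.95 times (1.64 to 8.61). Myog, at 3.30 (1.53 to 6.53), rested on 11 UMIs in 3 nuclei, and without the nucleus with 6 of them the ratio was 1.56 (0.480 to 3.94). Mymk was at 1.54 (0.171 to 6.54) from 2 UMIs. In the 17 nuclei with at least 2 Pax7 UMIs, Chodl had 35 UMIs, Megf10 67 and Ncam1 236. Myod1 and Mymk had 0 UMIs and Myog had 1. There 0 UMIs allow up to 21.5 CPM, above the 8.81, 4.29 and 12.1 CPM of Myod1, Mymk and Myog in the other nuclei, so a lower level was not detectable. In these nuclei 5 of the 8 genes were past the same ratio, against 15.5% of all genes. Chodl and Myf5, with 4 and 8 UMIs in the other nuclei, again passed the filter only through the Pax7 nuclei.

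Myog or Mymk was found in 27 nuclei, of which 18 were fibre-like, 5 satellite cell-like, 2 in other named clusters and 2 in cluster 1. Their median depth was 10765 UMIs, against 2285.5 in the other nuclei. Compared with all other nuclei Megf10 was 10.9 times as high (8.53 to 13.9), Chrna1 9.38 times (6.02 to 14.5), Ncam1 7.74 times (7.14 to 8.39), Myf5 6.31 times (1.42 to 22.6) and Myod1 6.005 times (2.68 to 12.6). Thus 5 of 7 genes were past a ratio of 2, beside 12.3% of all genes. Myf5, with 9 UMIs in the other nuclei, passed the filter of 10 UMIs only through this group. Pax7 was at 0.438 (0.140 to 1.04), with 5 UMIs in 4 nuclei, and Chodl had 0 UMIs, which at this depth allows up to 10.5 CPM beside its level of 9.63 CPM in the other nuclei, so a lower level was not detectable at this depth. Chrna1 was in 12 of the 22 nuclei with Myog and in 8 of the 10 with Mymk. Myog and Mymk shared 5 nuclei.

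**Figure D3:**
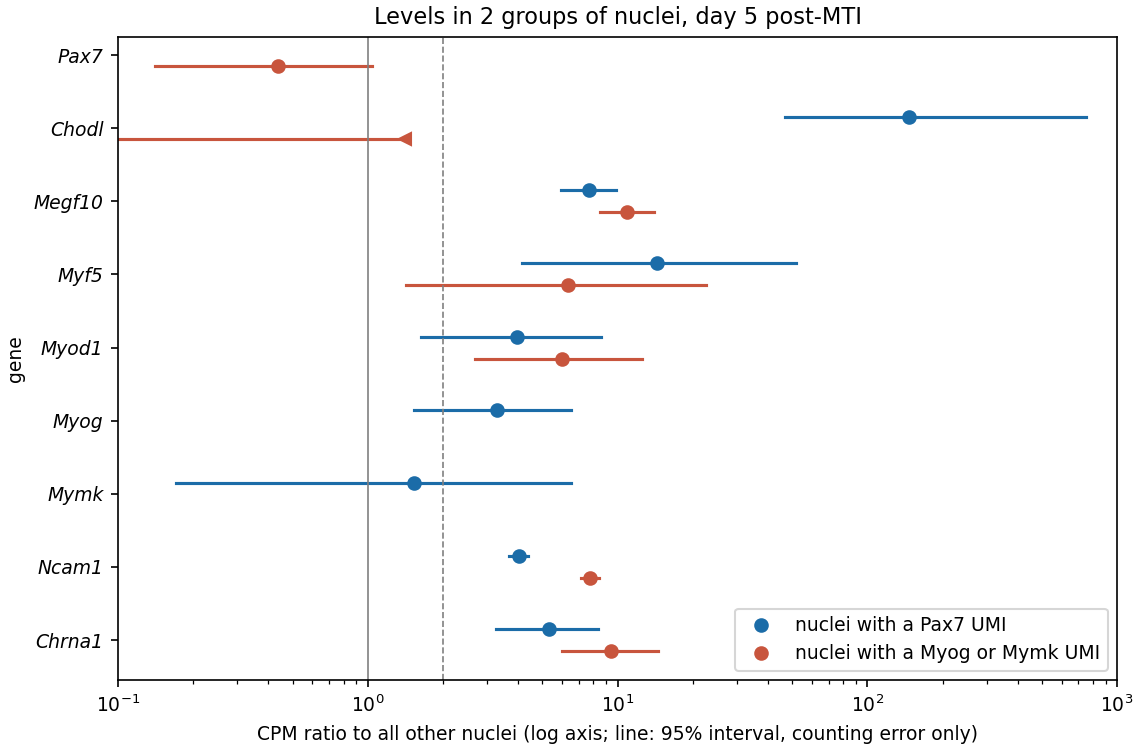
CPM ratio to all other nuclei (log axis) for nuclei with a Pax7 UMI and for nuclei with a Myog or Mymk UMI, day 5 post-MTI. Lines are 95% intervals for counting error, the dashed line is a ratio of 2, the triangle is the upper bound where the group had 0 UMIs, and genes that chose a group are left out for it. Chodl is at 148 in the Pax7 nuclei and has 0 UMIs in the others, whereas Megf10, Ncam1 and Chrna1 are past 2 in both.

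The genes whose pattern was most like that of Pax7 were sought among 5591 genes with at least 10 UMIs in, and at least 5, Pax7-positive nuclei, by their CPM ratio over the 42 and 1085 nuclei. They were Chodl, Chrna7 (61.5), Dcx (56.9), Heyl (30.05), Pde1c (26.99), Pax3 (22.8), Col6a6 (22.2), Hmcn2 (19.5), Lix1 (19.5) and Fgfr4 (17.8). Some rested on few nuclei. A single nucleus held 23 of the 40 Chrna7 UMIs of the group, 19 of 38 for Col6a6 and 17 of 46 for Hmcn2, and Dcx was in 6 nuclei. Pde1c was in 20 of the Pax7-positive nuclei, and Lix1 and Fgfr4 in 16 each. Heyl is a transcriptional effector of Notch, Pax3 the close relative of Pax7 and Fgfr4 a receptor of muscle progenitors. Pax3 had 13 UMIs in 6 Pax7-positive nuclei and 7 UMIs in 4 others. For the nuclei with Myog or Mymk, the leading genes of 4583 were Atp1b4 (36.5), Actc1 (34.6), Csrp3 (28.4), Gm12153 (26.6), Klf5 (24.3), Otog (23.7), Dok7 (20.0), Baiap2l1 (18.8), Gm43824 (18.0) and Tnnt2 (17.8). Actc1 and Tnnt2 encode the actin and troponin T of the heart, which developing skeletal muscle also makes, and Csrp3 is a protein of the fibre's Z-disc. Of the 240 Gm12153 UMIs of the group 118 lay in 1 nucleus.

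The nuclei with at least 2 Pax7 UMIs were then set against the nuclei with Myog or Mymk. The 1 nucleus in both groups was left out, which gave 16 nuclei (median 6279.5 UMIs) and 26 nuclei (median 10655.5 UMIs). Before that, 14 of the 17 Pax7 nuclei were satellite cell-like and 18 of the 27 Myog or Mymk nuclei fibre-like. The groups thus follow the clusters in large part, and group and cluster were not told apart in this contrast. Chodl was at 281 CPM against 0 UMIs, 25.3-fold higher when 3 UMIs are given to the second group, with a ratio interval that starts at 19.5. Megf10 did not differ beyond counting error, at 538 and 444 CPM (ratio 1.21, 0.885 to 1.65). Ncam1 was lower in the Pax7 nuclei, at 1798 and 3401 CPM (ratio 0.529, 0.455 to 0.612). Chrna1 stood at 56.2 and 126 CPM, a ratio of 0.447 whose interval (0.167 to 1.02) just reaches 1. Myod1 had 0 UMIs in the Pax7 nuclei and 11 UMIs in 8 of the 26 others.

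Among satellite cell receptors and niche genes, 10 of the 15 with at least 10 UMIs in these 42 nuclei had intervals wholly on the Pax7 side and 0 on the other side. Of all 6117 genes, 18.4% were on the Pax7 side and 10.9% on the Myog or Mymk side. The 10 include Cdh15, Calcr, Fgfr4, Vcam1, Notch3, Heyl and Spry1, which are markers that named the satellite cell-like cluster. For these genes the count is not separate from the naming. Cdh15, Calcr, Vcam1, Notch1, Notch3, Heyl and Jag1 had at most 9 UMIs in the Myog or Mymk nuclei. They passed the filter only through the Pax7 nuclei. The count is thus in part set by the filter and is not read as a result. Notch3 stood at 1324 and 33.3 CPM (39.8 times, 20.5 to 88.6), in 15 of 16 and 3 of 26 nuclei. Its target Heyl stood at 265 CPM against 0 UMIs (23.9-fold with 3 UMIs given, interval from 18.4). The ligand Jag1 stood at 104 CPM against 0 UMIs (9.41-fold with 3 UMIs given, interval from 6.62). Notch1, a second receptor of the pathway, was 15.2 times as high (4.54 to 79.6), Vcam1, an adhesion molecule, 30.4 times (4.62 to 1285), Fgfr4 7.34 times (4.46 to 12.6) and the cadherin Cdh15 4.10 times (1.73 to 10.4). Against all other nuclei of the library Jag1 was not high in the Pax7 nuclei. It stood at 0.529 (0.305 to 0.858) times their level in Pax7-positive nuclei, at 1.06 times (0.573 to 1.80) in those with at least 2 Pax7 UMIs and at 0.0345 times in Myog or Mymk nuclei. Vcam1 stood at 1.52 (0.846 to 2.57), 3.21 (1.71 to 5.59) and 0.0986 times. Calcr, the calcitonin receptor of quiescent satellite cells, had 16 of the 17 UMIs of the Pax7 group in 1 nucleus, without which its interval included 1. The ligand Dll1 stood at 32.1 and 51.8 CPM (ratio 0.620, 0.148 to 1.98), and Met, the receptor for hepatocyte growth factor, at 289 and 344 CPM.

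Factors that work with the regulatory factors lay on both sides. Mef2c (6.09 times, 4.54 to 8.35), Mef2a (3.03 times, 2.41 to 3.86), Mef2d (2.01 times, 1.29 to 3.24) and Myf6, the regulatory factor of mature fibres (17 against 0 UMIs), were higher in the Myog or Mymk nuclei. Eya1 was 5.36 times as high (2.87 to 10.5) and Tcf12, a partner of the regulatory factors, 1.69 times as high (1.39 to 2.05) in the Pax7 nuclei. Eya4 stood at 1148 and 1235 CPM, a ratio of 0.930 whose interval (0.759 to 1.13) included 1.

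Of 10 fusion and early differentiation genes, 9 were on the Myog or Mymk side, where 10.9% of all 6117 genes were. The embryonic and perinatal myosins Myh3 and Myh8 were 4.32 times (2.57 to 7.75) and 7.74 times (4.60 to 14.0) as high, with all 15 Myh8 UMIs of the Pax7 group in 1 nucleus. Tnnt2 and Actc1 had 52 and 39 UMIs against 0, and Cdkn1a, which stops the cell cycle, had 18 against 0. Of 7 junction genes 5 were on that side. Musk, a receptor kinase of the junction, was 9.34 times as high (5.12 to 19.0) and its adaptor Dok7 10.1 times (1.64 to 418). The others were the acetylcholine receptor subunits Chrnd (9.21 times, 1.47 to 382), Chrng (3.34 times, 1.17 to 13.1) and Chrnb1 (2.35 times, 1.14 to 5.47). Rapsn and Lrp4 were not separated. Chrng, the fetal subunit of the receptor, had 31 UMIs in 13 of the 27 nuclei with Myog or Mymk. All 16 fibre genes tested were on the Myog or Mymk side, from Mybpc1 (2.10 times) to Acta1 (12.1 times) among those with UMIs in both groups. They include the 13 markers that named the fibre-like cluster. Within that cluster 10 of the 16 were lower in nuclei with Myog, some of them only slightly, as given below. Several genes of these 3 lists had at most 9 UMIs in the Pax7 nuclei. Among them were Actc1, Tnnt2, Cdkn1a, Myl4, Tmem182, Chrnb1, Chrnd, Chrng, Dok7, Acta1, Myh1 and Myh2. They passed the filter of 10 UMIs only through the Myog or Mymk nuclei. The 3 counts are thus in part set by the filter and are not read as results.

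Cell cycle genes were low in the nuclei with Myog or Mymk. All 19 genes of that list stood at 0.5 or less of the level of the other nuclei in the 27 nuclei with Myog or Mymk (29 UMIs in all, median ratio 0.101), where 39.1% of all genes did. In the 42 Pax7-positive nuclei 4 of the 19 did (27.0% of all genes), 2 were past a ratio of 2, and the median was 0.878 beside 0.882 for all genes. All 8 cell cycle genes with at least 10 UMIs in both groups together were on the Pax7 side, where 18.4% of all 6117 genes were, but few nuclei carried them. Each had at most 8 UMIs in the Myog or Mymk nuclei and so passed that filter only through the Pax7 nuclei. Their side was thus largely set by the filter, and the count is not read as a result. Top2a had 28 of its 34 UMIs in 1 nucleus, which also held all 5 Myf5 UMIs of the group, and for 4 of the 8 genes the interval included 1 once the nucleus with most UMIs of the gene was left out. Those 4 were Mki67, Cenpf, Kif11 and Kif4. The same happened for Myod1, Calcr, Hes1, Jam3, Chrng and Myh2, and for no other gene of these lists.

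**Figure D4:**
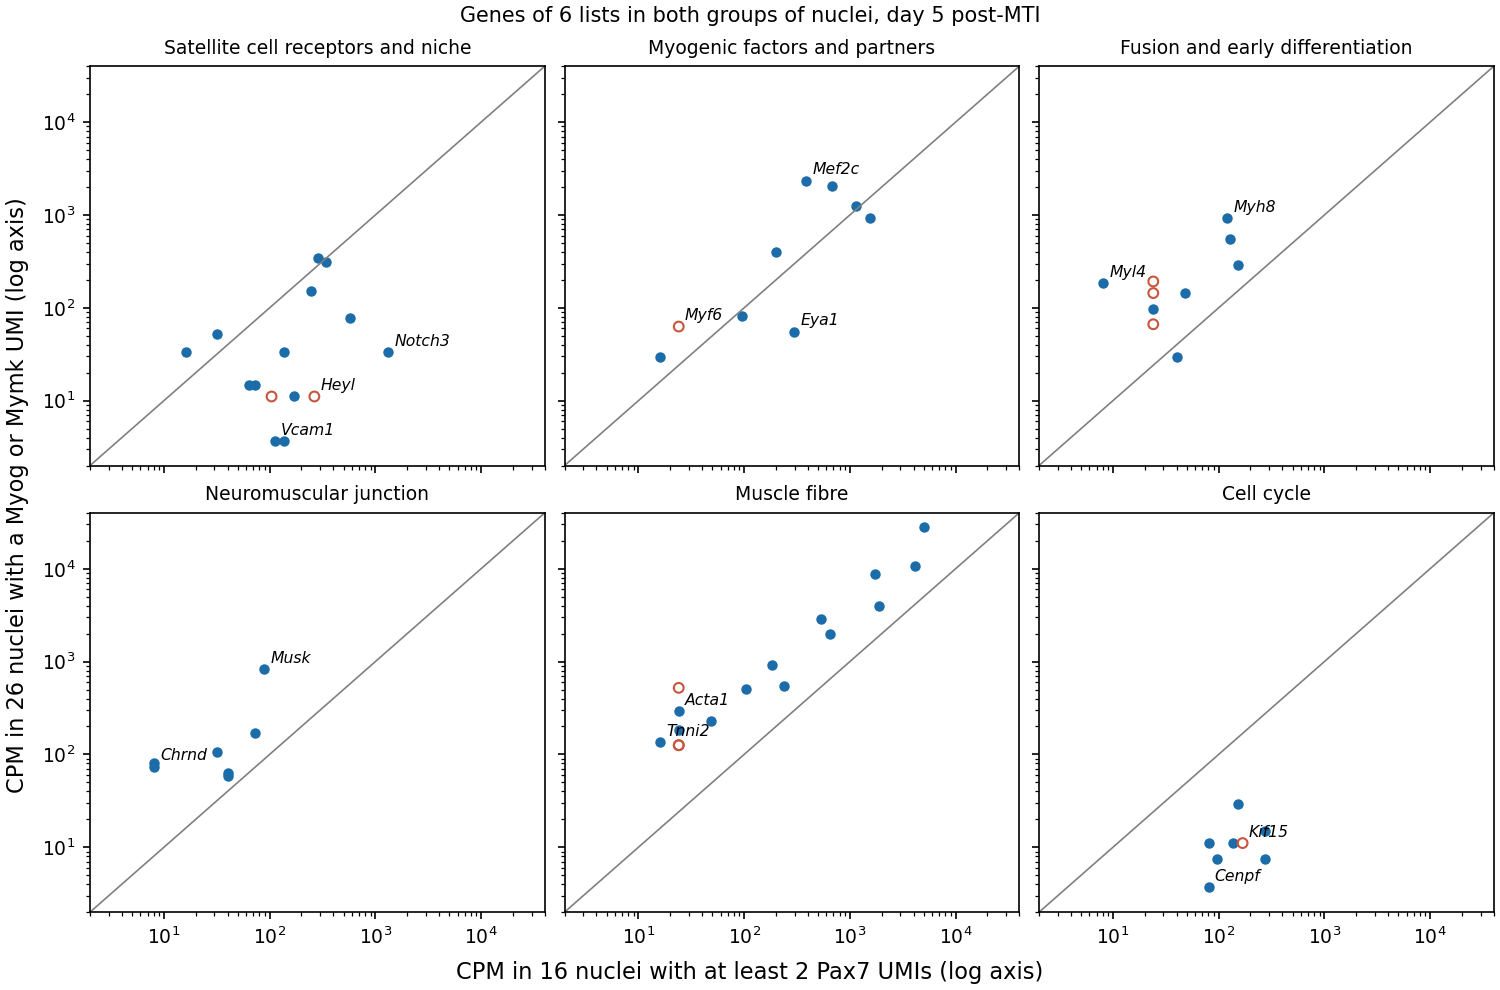
Level of the genes of 6 lists (CPM, log axes) in 16 nuclei with at least 2 Pax7 UMIs and in 26 nuclei with a Myog or Mymk UMI, for genes with at least 10 UMIs in both groups together. Open circles had 0 UMIs in a group and are drawn there at 3 UMIs, and the line marks equal levels. Notch3 stands at 1324 and 33.3 CPM, and the fibre genes lie above the line.

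Markers of other cells in these nuclei were as follows. Erythroid markers had 0 UMIs in the Pax7-positive and in the Myog or Mymk nuclei. In the Pax7-positive nuclei immune markers stood at 460 CPM (7 of 9 markers, 0 to 32 UMIs per nucleus), skeletal lineage markers at 922 CPM (15 of 19, 0 to 49) and endothelial markers at 2516 CPM (5 of 6, 0 to 120), against 2038, 2946 and 1160 CPM over all filtered nuclei. Immune Cd74 and S100a8, skeletal Ly6a, Cd34, Dpp4 and Bglap and endothelial Emcn were at 0. In nuclei with at least 2 Pax7 UMIs the endothelial sum was 2149 CPM, from 2 of the 6 markers (Cdh13 and Eng). Pecam1, Emcn, Cdh5 and Flt1 were at 0 there. The endothelial sum of the fibre-like cluster was 3156 CPM. In the Myog or Mymk nuclei the sums were 287 CPM (8 of 9, 0 to 44), 140 CPM (8 of 19, 0 to 7) and 3990 CPM (4 of 6, 0 to 192). Their part in the co-detection was not tested. The Schwann cell marker Sox10 was at 0 in all 1127 filtered nuclei.

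Within the fibre-like cluster, 14 of the 98 nuclei had Myog and were deeper (median 11254.5 against 5075.5 UMIs). Megf10 was 7.05 times as high in them (4.15 to 12.3, 45 UMIs in 7 nuclei against 22 UMIs in 9) and Ncam1 1.81 times (1.61 to 2.03). Pax7 (4 and 11 UMIs), Myod1 (8 and 17 UMIs) and Chrna1 (18 and 38 UMIs) had intervals that included 1. Chrnd was 3.45 times (1.69 to 7.03) and Musk 1.86 times (1.55 to 2.24) as high, 2 of 10 junction genes beside 5.92% of all 7231 genes. Of 9 fusion and early differentiation genes 4 were higher and 0 lower, namely Actc1 (2.59 times, 1.23 to 5.31), Tmem182 (1.88 times, 1.22 to 2.87), Jam3 (2.33 times, 1.40 to 3.81) and Myl4 (2.30 times, 1.34 to 3.87). In this order they were in 2, 11, 6 and 5 of the 14 nuclei with Myog. Of the 84 nuclei without Myog, 9, 32, 19 and 14 had them. The ratios were not repeated without the highest nucleus. Of 16 fibre genes 10 had intervals below 1 in the nuclei with Myog, beside 6.89% of all genes. Intervals narrow with more UMIs, so genes with many UMIs were called lower at ratios closer to 1. These shares are not matched for UMIs and are not read as a contrast. The 10 genes ran from the fast myosin Myh4 (0.509, 0.418 to 0.617) to Dmd (0.929, 0.885 to 0.976). Dmd had 2066 UMIs in the nuclei with Myog and 7666 in the others. Between them lay the fast myosin Myh1 (0.568, 0.455 to 0.703), Ttn (0.779, 0.754 to 0.804) and Mybpc1 (0.913, 0.835 to 0.998). Actn2 alone was higher (1.55, 1.23 to 1.96).

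At day 1 post-fracture the 9 genes had 263 UMIs in the 2405 filtered nuclei, 219 CPM (193 to 247). Ncam1 had 157 of them (131 CPM), Pax7 29 (24.1 CPM), Megf10 26 (21.6 CPM), Myod1 24 (20.0 CPM), Chrna1 12 (9.98 CPM), Chodl 7 (5.82 CPM), Myf5 6 (4.99 CPM) and Myog 2 (1.66 CPM). Mymk had 0, which allows up to 2.495 CPM. No nucleus had more than 1 UMI of any of these genes except Ncam1 (up to 3) and Megf10 (up to 2), and 224 of the 234 nuclei with any of them had a single gene. The same genes were present in the RNA free in the droplets, measured in 43464 barcodes with fewer than 200 genes, where they came to 171 CPM (162 to 181). Pax7 was 1.32 times as high in nuclei as in this free RNA (0.850 to 1.99), Megf10 0.974 times (0.617 to 1.48) and Chodl 1.17 times (0.439 to 2.69), so at this depth they were not separated from it. Myod1 was 1.93 times (1.16 to 3.10), Chrna1 2.97 times (1.35 to 6.22) and Ncam1 1.25 times (1.05 to 1.49) as high, with intervals above 1. Myf5 was at 2.14 (0.685 to 5.75). Thus 3 of the 9 genes were past a ratio of 1.5, where 18.0% of all 22216 genes were.

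**Figure D5:**
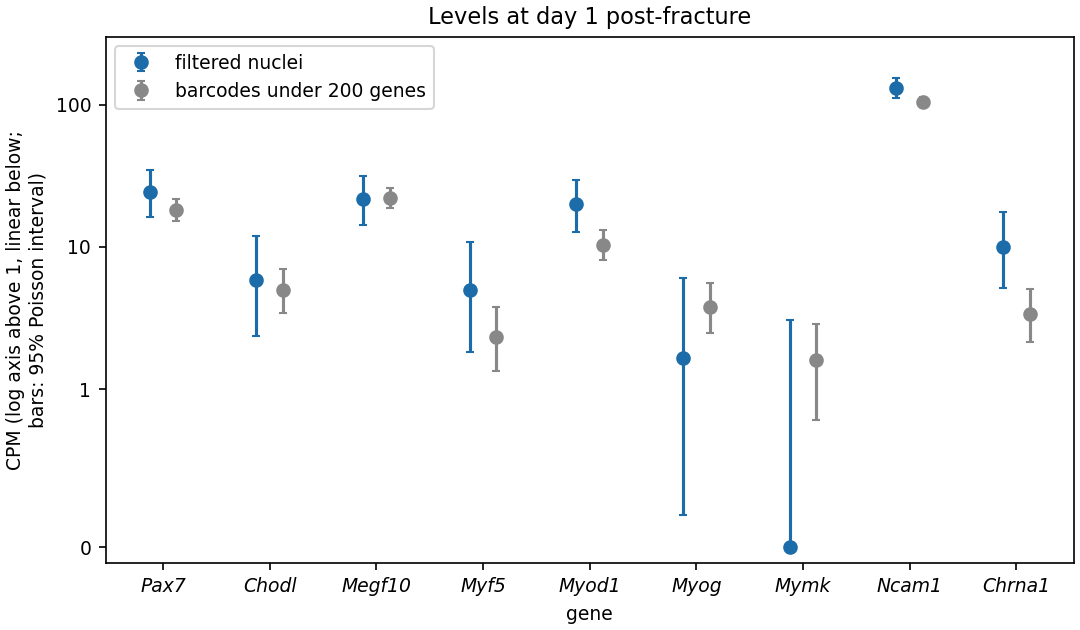
Level of each gene (CPM, log axis above 1 and linear below) at day 1 post-fracture in the filtered nuclei and in barcodes under 200 genes, with 95% Poisson intervals. The points of Pax7, Megf10 and Chodl lie within overlapping intervals, and Mymk is at 0 in the nuclei.

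Co-detection at day 1 was rare. Of the 29 nuclei with Pax7, 4 had Ncam1, 1 had Megf10 and 0 had any of the others. No cluster reached the satellite cell-like name. Of the 29 Pax7 UMIs 6 lay in the 550 fibre-like nuclei, 8 in the 552 immune-like nuclei and 14 in clusters without a name. Of the 24 Myod1 UMIs 10 were in fibre-like nuclei. Megf10 and Chodl had 15 of 26 and 5 of 7 UMIs in cluster 7, which has no name (201 nuclei, median 688 UMIs). Some genes of the lists differed from free RNA. Myh3 and Myh8 were at 0.193 (0.105 to 0.328) and 0.189 (0.0933 to 0.342) times the free level, and Hes1 at 0.184 (0.0588 to 0.438). Musk (1.66, 1.34 to 2.06), Chrnb1 (1.695, 1.21 to 2.34) and Eya1 (1.76, 1.41 to 2.19) were higher in nuclei. Of the 16 niche genes 1 was past a ratio of 1.5. Of the 14 myogenic factors and partners 2 were, and of the 9 fusion and early differentiation genes 0. Of the 11 junction genes 2 were past it, of the 17 fibre genes 5 and of the 19 cell cycle genes 5. Over all 22216 genes the share was 18.0%. The median ratios of these 6 lists, in this order, were 0.982, 1.12, 0.736, 0.949, 1.16 and 1.10, beside 1.06 for all genes.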

How the data were processed

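Nuclei from injured tibias were sorted, and 1 droplet library was made per condition. What the authors deposited are whole-number UMI counts for every gene in every barcode, not normalized, and the submitters' processing notes name Cell Ranger 7.0.1 and mm10. The filters were those of the methods, namely 200 to 5000 genes, with under 0.5% mitochondrial and 2.5% ribosomal UMIs at day 1 and under 5% and 2% after MTI. The libraries held 9389014 UMIs in 48987 barcodes and 5899407 UMIs in 1446 barcodes. Each library was clustered on its own with Seurat 5.3.0 (R 4.3.3) on 2000 variable genes without the 9 genes, regressing out mitochondrial and ribosomal content (and cell cycle at day 1). The main settings were 20 components and resolution 1.7 at day 1, and 30 components and resolution 1.0 after MTI. A cluster was named from at least 3 markers with a fold of at least 1.5. The pooled markers also needed that fold, and a marker had to be among the 100 leading genes. No other cell type could have more markers in the top 10. Clusters under 0.333 times the median depth also needed a marker in the top 10. Clusters 1, 5 and 6 after MTI were under that depth (medians 691, 747.5 and 720 UMIs). Their missing name does not show that markers were missing. UMIs were summed over nuclei and divided by the total to give CPM. Shares have exact Clopper-Pearson, CPM exact Poisson and ratios exact conditional binomial intervals at 95%. Of these only the ratio intervals were tested on simulated data. The simulated counts were Poisson, without the spread between nuclei, so that test does not cover it. With 1 library per condition there are no p-values, and nuclei are not replicates.

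A gene was past a ratio when it had at least 10 UMIs and a CPM ratio of at least 2 (1.5 against free RNA). All 9 genes are named. Genes most like Pax7, and most like Myog or Mymk, were the 10 with the highest ratio, and genes of 6 pathway lists were named where they had at least 10 UMIs. The members and lists were chosen with earlier results of these data known. Positions come from GENCODE on GRCm38. Scrublet in scanpy 1.11.5 marked 3 nuclei after MTI, which were kept. Sums, intervals and ratios were computed in pandas 2.3.3 and scipy 1.17.1 (Python 3.11.15). Filters, thinning, doublet removal and cluster settings were varied. A gene of the lists is not reported here.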

Additional observations from a re-analysis of the deposited data

Results flagged for a closer look

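The 21 day 5 post-MTI barcodes with over 5000 genes, which the filters left out, held 718 UMIs of the 9 genes, 1201 CPM (1114 to 1292), and 653 of these were Ncam1 (1092 CPM). Their median depth was 27610 UMIs. They stood out because barcodes outside the comparisons carried a signal above the 769 CPM of the filtered nuclei. Megf10 had 35 UMIs in 4 of these barcodes, 23 of them in 1, Chrna1 16 in 5, Mymk 4 in 3, Pax7 4 in 2 and Chodl 0. A further 271 barcodes of 200 to 5000 genes exceeded a mitochondrial or ribosomal limit and held 351 UMIs of the 9 genes, 378 CPM (340 to 420). Among them Pax7 was at 25.9 CPM in 11 barcodes, Megf10 at 76.6 CPM, Myog at 12.9 CPM and Chodl at 1.08 CPM. Whether either set holds several nuclei per barcode was not tested.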

How the results depend on the processing

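The summed level after MTI (769 CPM) was 700.1 CPM with the gene limits alone and 724 CPM with the mitochondrial and ribosomal limits of the other library. At day 1 (219 CPM) it was 288 CPM with at least 500 genes and 180 CPM over all barcodes. The share of these UMIs in myogenic clusters (74.6%) fell to 55.9% with the limits of the other library, where 74 nuclei were myogenic, and to 69.7% over all barcodes. The other 5 settings gave between 73.5% and 74.8%. Thinning to 500 UMIs lowered the Pax7 share from 3.73% to 1.06%, and of the 12 nuclei that then had Pax7 only 1 (8.33%) had another of the genes, against 11.03% of the others. With at least 2 Pax7 UMIs that share was 100%. The 7 genes past a ratio of 2 (12.6% of all genes) were 4 when genes needed 50 UMIs, since 4 were then not tested. They were 5 with at least 2 Pax7 UMIs (15.5% of all genes) and 6 with the limits of the other library (13.1%). Over all barcodes they were 8 (11.7%). Without the nucleus holding most UMIs of each gene, a setting chosen after seeing the data, they were 6. The share of all genes was not computed there. With all nuclei thinned, also chosen after seeing the data, 0 were past the ratio of 2. There 2 of the 8 genes still had 10 UMIs and 19.0% of all genes were past it. With 50 UMIs needed, 8.74% of all genes were past it. Without the 3 nuclei marked as doublets 7 genes were past it, beside 12.9% of all genes. Levels of single genes moved beyond their intervals for 4 genes with at least 500 genes and 3 over all barcodes at day 1, and for 5 with the limits of the other library and 1 with the gene limits alone after MTI. The causes were not tested. With 1 library per condition no replicate could be left out. Genes with under 20 UMIs, such as Myf5 and Mymk, are limited by depth, and a share of nuclei with a UMI follows depth.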
